A study of Macaca fascicularis with 24 samples.

Results

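Senescent cells leave the cell cycle for good, and the aorta of old animals is one of the tissues in which they are looked for. Levels of 9 genes that mark or carry out that arrest were followed in thoracic aortas of cynomolgus macaques, old and young (Macaca fascicularis): CDKN1A, CDKN2A, CDKN1B, CDKN1C, CDKN2C, MDM2, GDF15, LMNA and LMNB1. All probe sets (groups of short probes that read 1 transcript) whose platform annotation names 1 of these genes and no other were taken. There were 22 of them among 22277 on the array, and they covered 8 of the 9 genes. CDKN2C is named only, since no probe set was annotated with it alone.

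The study measured RNA on 24 single-colour human expression arrays, 6 for each combination of age and sex, and the design compares old with young animals within each sex. Old females had a mean age of 21.2 years, old males 20.0 years, young females 7.2 years and young males 6.6 years. The labels give no age for a single animal and no treatment, strain or diet, and they do not say whether arrays of a group come from separate animals, so every p-value here speaks only of the variation among samples, which may be technical. 3 pairs of arrays, each within 1 group, had near-identical profiles: numbers 1 and 4 of the old females, 3 and 4 of the young males, and 3 and 4 of the young females. Their deviations from the mean profile correlated at 0.792 to 0.881, against 0.571 for the next most similar pair. Each such pair was averaged under its lower number and counted once, which left 21 samples: 6 old males and 5 in each other group.

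Cell cycle arrest rests on proteins that inhibit cyclin-dependent kinases (CDKs). CDKN1A (p21) is switched on by p53 after DNA damage, and CDKN2A encodes both p16, which blocks CDK4 and CDK6, and ARF, which frees p53 from MDM2. CDKN1B (p27) and CDKN1C (p57) hold cells in quiescence or in a differentiated state. MDM2 is the ubiquitin ligase that degrades p53 and is itself a p53 target, and GDF15 is a secreted stress factor that p53 can induce. LMNA and LMNB1 encode lamins A/C and B1 of the nuclear envelope, and loss of LMNB1 is a known mark of senescent cells in culture, as a rise of p16 and p21 is in tissues.

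Some arrays stood apart from the rest. The median correlation with all other arrays was 0.809 to 0.828 on 7 arrays and 0.878 to 0.935 on the other 17. After averaging they were 6 samples, namely numbers 2 and 6 of the old females, 2 and 4 of the old males, number 3 of the young females and number 1 of the young males. Actin control probes near the 3′ end read higher than those near the 5′ end by 0.79 to 1.73 (log2) on them and by -0.25 to 1.15 on the rest, a ratio that rises with RNA degradation. Young male 1 also read 10.31 for XIST, an RNA of the inactive X chromosome, against 6.09 to 7.47 on the other young male arrays and 11.47 to 12.44 on young female arrays, although its RPS4Y1 (Y-linked) was 11.97. Several changes moved when these samples were left out, and values without them are given for most of the changes described in detail. Among 9 smooth muscle markers, ACTA2 at 13.89 to 15.15 and TAGLN at 13.99 to 15.65 were high in every sample. Others varied more, such as DES from 8.06 to 12.86 and SMTN from 9.78 to 13.81. All levels here are log2(intensity + 16) after quantile normalisation, and a level of 1 probe set is not set against that of another to rank genes.

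Which of the classical markers gave a signal at all was asked with a reference, since no detection calls were used here. The reference was the 49 probe sets of 39 genes of other tissues, such as photoreceptor, sperm and pancreatic genes, which had a median level of 5.41, a 95th percentile of 7.51 and a maximum of 8.39. The 11 probe sets of 7 Y-linked genes in females gave a similar range, with a median of 5.54 and a 95th percentile of 7.35. Of the 22 member probe sets, 11 had a mean above 7.51, which is called above the reference range here. These were the same 11 that passed the intensity filter (a mean at or above the median of all probe sets). Both cuts are nearly the same, since 7.51 lay at the 48.4th percentile of all probe sets, so this match is no separate check of detection. The 11 belonged to 5 genes: all 4 of LMNA, 4 of 5 of CDKN1C, the only ones of CDKN1A and CDKN1B, and 1 of 3 of CDKN2A. CDKN1B lay above the 95th percentile of the reference in its own array in 13 of 21 samples, and the others in 20 or 21. The mean of CDKN1B, 8.07, was below the highest reference probe set, and that of CDKN2A 209644_x_at, 8.49, was just above it. No probe set of MDM2, GDF15 or LMNB1 lay above the reference range. Human probes were read with monkey RNA, and a mismatch can lower a probe set on all arrays alike, so a low level does not show that a transcript is absent.

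**Figure D1:**
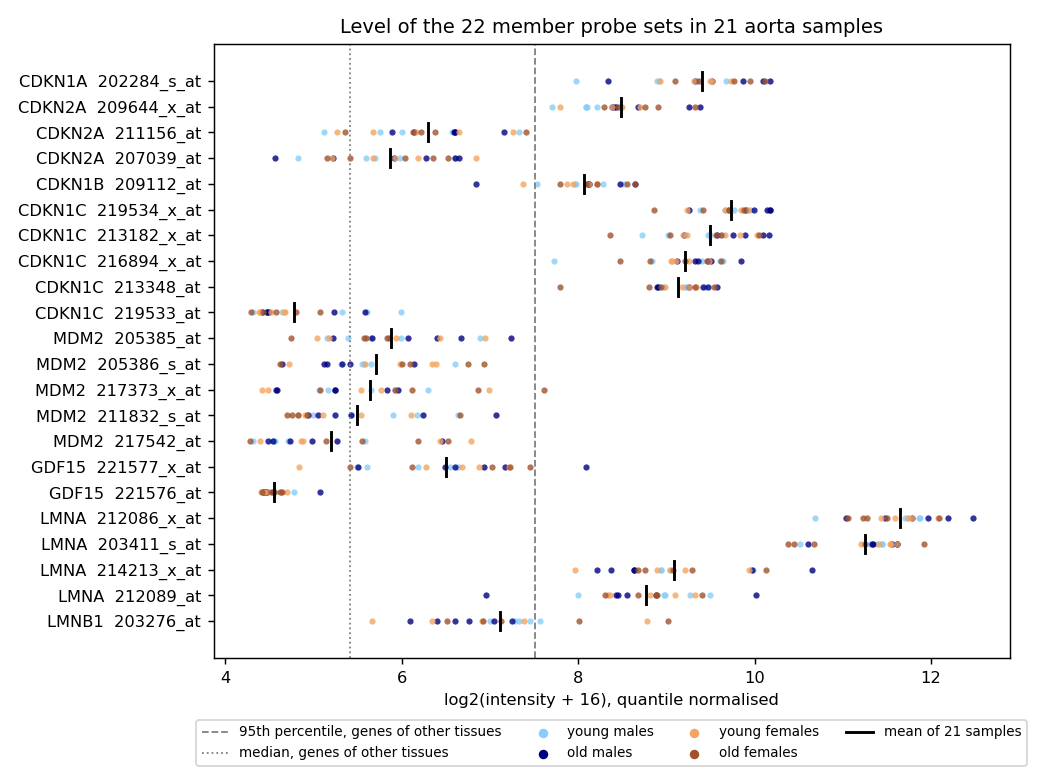
Level of each member probe set (rows) in log2(intensity + 16), with 1 point per sample coloured by group and a black bar at the mean of 21 samples. The dashed line is the 95th percentile of genes of other tissues (7.51) and the dotted line their median (5.41). All LMNA probe sets, 4 of CDKN1C, those of CDKN1A and CDKN1B and 1 of CDKN2A have means to the right of the dashed line, and MDM2, GDF15 and LMNB1 do not.

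Across all members, no probe set passed in any comparison of old with young. A linear model with 1 mean per group was fitted with limma over 11108 probe sets, with Benjamini-Hochberg adjustment within each contrast. In males 0 of the 11 member probe sets above the filter passed an adjusted p of 0.05, against 0.0180% of all probe sets, and 1 had an unadjusted limma p below 0.05, against 3.36% of all. In females 0 passed and 0 had an unadjusted p below 0.05, where the shares over all probe sets were 0% and 2.84%. Averaged over the sexes 0 passed and 1 had an unadjusted p below 0.05 (0% and 4.38% over all). In the test of whether the age effect differed between the sexes 0 passed and 0 had an unadjusted p below 0.05 (0% and 1.97% over all). Of the 11, 8 were higher on average in old males, as were 47.7% of all probe sets, with a median log2 change of 0.22 against -0.014 over all. In old females 5 of the 11 were higher, as were 45.6% of all, with a median of -0.07 against -0.028. The 11 cover 5 genes, and most are repeated readings of CDKN1C and LMNA, so they are not independent. In the fit without the filter on 22215 probe sets, 0 of 22 passed in any of the 4 contrasts. The only one with an unadjusted limma p below 0.05 there was CDKN2A 209644_x_at, in males (3.93% of all) and averaged over the sexes (5.08% of all).

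**Figure D2:**
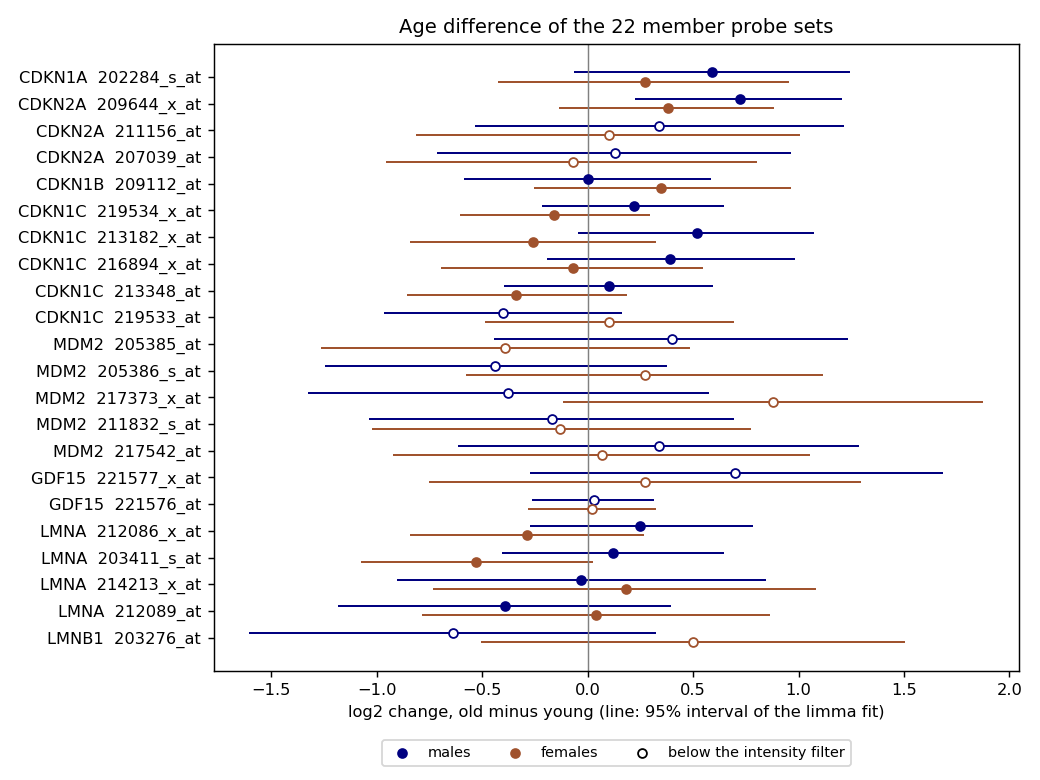
Log2 change of old minus young for each member probe set, males in blue and females in brown, with the 95% interval of the limma fit; open symbols lie below the intensity filter. The interval of CDKN2A 209644_x_at in males (0.23 to 1.20) is the only one that leaves out 0.

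CDKN2A, the gene of p16 and ARF, held the member probe set with the smallest p, and only 1 of its 3 probe sets lay above the reference range. On 209644_x_at the 6 old males read 8.41, 9.26, 8.38, 9.38, 8.68 and 8.43 (samples 1 to 6), and the young males 7.70, 8.09, 8.21, 8.10 and 8.09 (samples 1, 2, 3, 5 and 6). Every old male thus lay above every young male. Old males averaged 8.76 ± 0.45 (SD, n = 6) and young males 8.04 ± 0.19 (n = 5), which is a difference of 0.72 ± 0.23 (SE) on the log2 scale with a limma adjusted p of 1. It was the only one of the 22 member probe sets on which the males did not overlap, against 0.612% of all probe sets, and 0.315% of those tested had old males higher. In females none of the members separated the groups, against 0.342% of those tested.

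In females the groups overlapped on this probe set. Old females read 8.45, 8.76, 8.29, 8.91 and 9.33 (samples 1, 2, 3, 5 and 6), and young females 7.79, 8.70, 8.38, 8.49 and 8.50 (samples 1, 2, 3, 5 and 6). The log2 change was 0.38 ± 0.24 (limma adjusted p = 1), and the difference between the sexes in the age effect was 0.34 ± 0.34 (interaction, limma adjusted p = 1), so the male value was not shown to differ from the female one. Averaged over the sexes the change was 0.55 ± 0.17 (limma adjusted p = 0.985), with a 95% interval of 0.20 to 0.90.

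The samples that stand apart carried part of the male difference. The 2 highest old males were samples 2 and 4 and the lowest young male was sample 1, all of them among the 6. Without these samples, 4 old males at 8.38 to 8.68 still lay above 4 young males at 8.09 to 8.21, which 2.90% of all tested probe sets then did in this direction. The log2 change came down to 0.35 ± 0.20 (limma adjusted p = 0.922), and in females to 0.18 ± 0.21 (limma adjusted p = 0.952). Averaged over the sexes it was then 0.27 ± 0.15, and the difference between the sexes was 0.17 ± 0.29. Without young male 1 alone it was 0.63 ± 0.25 in males (limma adjusted p = 0.907). The part of RNA quality in this difference was not tested.

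The other CDKN2A probe sets lay within the reference range and gave no such separation. On 211156_at old males read 5.89 to 7.16 with a mean of 6.50 ± 0.44, and young males 5.12 to 7.33 with a mean of 6.16 ± 0.84. On 207039_at old males averaged 5.87 ± 0.83 and young males 5.75 ± 0.64. Their log2 changes of 0.34 ± 0.42 and 0.13 ± 0.40 in males had 95% intervals of -0.53 to 1.21 and -0.71 to 0.96, which include the change on 209644_x_at. Without the samples that stand apart the change in males was 0.43 on 211156_at and 0.48 ± 0.37 on 207039_at. Probes with the suffix x_at can also bind other transcripts, by the array maker's naming. Beyond group means, the correlations of 209644_x_at with the other 2 did not pass over the 15 samples that did not stand apart (Pearson r = 0.29 and -0.25, Spearman's rho 0.38 and -0.31, permutation p = 0.297 and 0.380 for r and 0.169 and 0.264 for rho, adjusted p = 0.548 and 0.600 for r over 30 pairs). Without the 2 samples farthest from the median, r was 0.03 and -0.28. CDKN2B, which encodes the related inhibitor p15, read a mean of 5.63, also within the reference range.

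**Figure D3:**
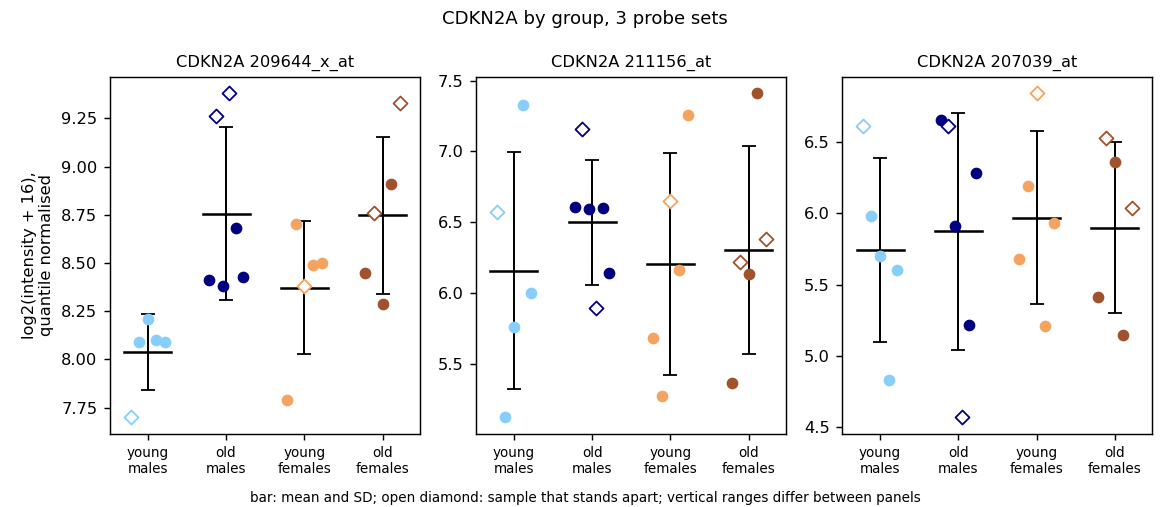
CDKN2A levels by group on 3 probe sets, with 1 symbol per sample and the mean and SD as bars; open diamonds are samples that stand apart, and the vertical ranges differ between panels. On 209644_x_at the old males (8.38 to 9.38) all lie above the young males (7.70 to 8.21), while on the other 2 probe sets the groups overlap.

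CDKN1A, the p21 gene and the main effector of p53 in arrest, was above the reference range, and its mean was higher in old animals of both sexes without passing the test. Old males read 9.52, 8.34, 10.10, 9.32, 10.17 and 9.87 (samples 1 to 6), and young males 8.92, 8.89, 9.35, 7.98 and 9.68 (samples 1, 2, 3, 5 and 6). Old males 3, 5 and 6 lay above all young males, and old male 2 lay below all of them except young male 5. The change was 0.59 ± 0.31 on the log2 scale (limma adjusted p = 1), with an interval of -0.06 to 1.24. Old females read 9.10 to 10.12 with a median of 9.77, and young females 8.93 to 9.73 with a median of 9.50, a change of 0.27 ± 0.33 (limma adjusted p = 1), or 0.44 ± 0.33 without the samples that stand apart (limma adjusted p = 0.927).

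Without the 6 samples that stand apart the CDKN1A change in males was larger, unlike that of CDKN2A. Old males then had a mean of 9.91 ± 0.30 (n = 4), and the change was 0.94 ± 0.31 (limma adjusted p = 0.641). Its unadjusted limma p was below 0.05 there, as for 5.94% of all tested probe sets. The young and old males still overlapped, since young male 6 was at 9.68 and old male 1 at 9.52. With all other samples in, the size of this difference depended on old male 2 and young male 5: it was 0.83 ± 0.28 without the first (limma adjusted p = 1) and 0.34 ± 0.30 without the second (limma adjusted p = 1).

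CDKN1B, which encodes p27, averaged 8.05 ± 0.63 in old and 8.05 ± 0.37 in young males. Old males 1, 2, 3, 5 and 6 read 8.11, 8.47, 8.65, 8.12 and 8.12, and old male 4, which stands apart, read 6.84. The change in males was -0.002 on the log2 scale, with a 95% interval of -0.58 to 0.58 (limma adjusted p = 1). Without old male 4 it was 0.24 ± 0.23, and without all samples that stand apart 0.18 ± 0.26. Old females averaged 8.26 ± 0.34 and young females 7.91 ± 0.33, a change of 0.35 ± 0.29 (limma adjusted p = 1) with overlapping groups at 7.79 to 8.64 and 7.38 to 8.22.

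CDKN1C, which encodes p57, was read by 5 probe sets, 4 of them above the reference range. The brightest, 219534_x_at, lay at 9.26 to 10.18 in old and 9.38 to 9.95 in young males, a change of 0.22 ± 0.21, and at 8.86 to 9.88 in old and 9.23 to 9.93 in young females, a change of -0.16 ± 0.21 (limma adjusted p = 1 in both). All 4 averaged higher in old than in young males, with log2 changes from 0.10 to 0.52, and lower in old than in young females, with changes from -0.34 to -0.07. The direction in females did not hold for 3 of them without the samples that stand apart (0.01 on 219534_x_at, 0.22 on 216894_x_at and 0.04 on 213348_at). The largest male change was on 213182_x_at. There old males read 9.89, 9.76, 9.20, 9.58, 10.16 and 10.10 (samples 1 to 6) and young males 9.49, 9.63, 9.47, 9.02 and 8.72 (samples 1, 2, 3, 5 and 6). Old males 1, 2, 5 and 6 lay above all young males and old males 3 and 4 lay among them, for a change of 0.52 ± 0.27 (limma adjusted p = 1). Without the samples that stand apart this change was 0.63. The fifth probe set, 219533_at, was within the reference range at a mean of 4.78, with a change of -0.40 ± 0.27 in males and 0.10 ± 0.28 in females (limma adjusted p = 1 and 0.999 without the filter), or -0.22 ± 0.29 and -0.01 without the samples that stand apart.

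The age effect on 213182_x_at in males minus that in females was 0.78 ± 0.39 (interaction, limma adjusted p = 1), and 0.91 ± 0.38 without the samples that stand apart (limma adjusted p = 0.999). In the latter fit its unadjusted p was below 0.05, as for 3.62% of all tested probe sets. In old females the spread on this probe set was wide, from 8.36 in sample 6 to 10.05 in sample 2, both of which stand apart. Old female 6 was also the lowest female on the other 3 probe sets above the reference range, and smooth muscle markers had a mean of 11.50 in it against 12.13 to 13.83 in the other females. The part of cell composition in this was not tested, and in a bulk sample fewer cells of a type and less RNA per cell cannot be told apart.

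Probe sets of 1 gene that read the same transcript should vary together from sample to sample. Over the 15 samples that do not stand apart, with group means subtracted, 2 of 30 pairs of probe sets of the same gene passed. CDKN1C 219534_x_at and 213182_x_at correlated at r = 0.90 (permutation p = 3e-05, adjusted p = 0.0009; Spearman's rho 0.75, permutation p = 0.00175, adjusted p = 0.0525), and at r = 0.82 without the 2 samples farthest from the median (adjusted p = 0.0283). LMNA 212086_x_at and 203411_s_at correlated at r = 0.79 (permutation p = 0.00026, adjusted p = 0.0039; rho 0.62, permutation p = 0.0155, adjusted p = 0.233), but at r = 0.69 with an adjusted permutation p of 0.0711 without the 2 farthest. How many probes these pairs share was not examined here. The permutations ran across groups and did not allow for the subtracted group means, so the permutation p-values may be too small. None of the 10 pairs of MDM2 probe sets passed (r from 0.01 to 0.59), nor did the pair of GDF15 probe sets (r = -0.13) or the 3 of CDKN2A (r from -0.44 to 0.29). Of the 10 CDKN1C pairs (r from -0.19 to 0.90) and the 6 LMNA pairs (r from -0.03 to 0.79), only 1 each passed. LMNA 212089_at correlated at 0.02 with 212086_x_at and at -0.03 with 203411_s_at.

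**Figure D4:**
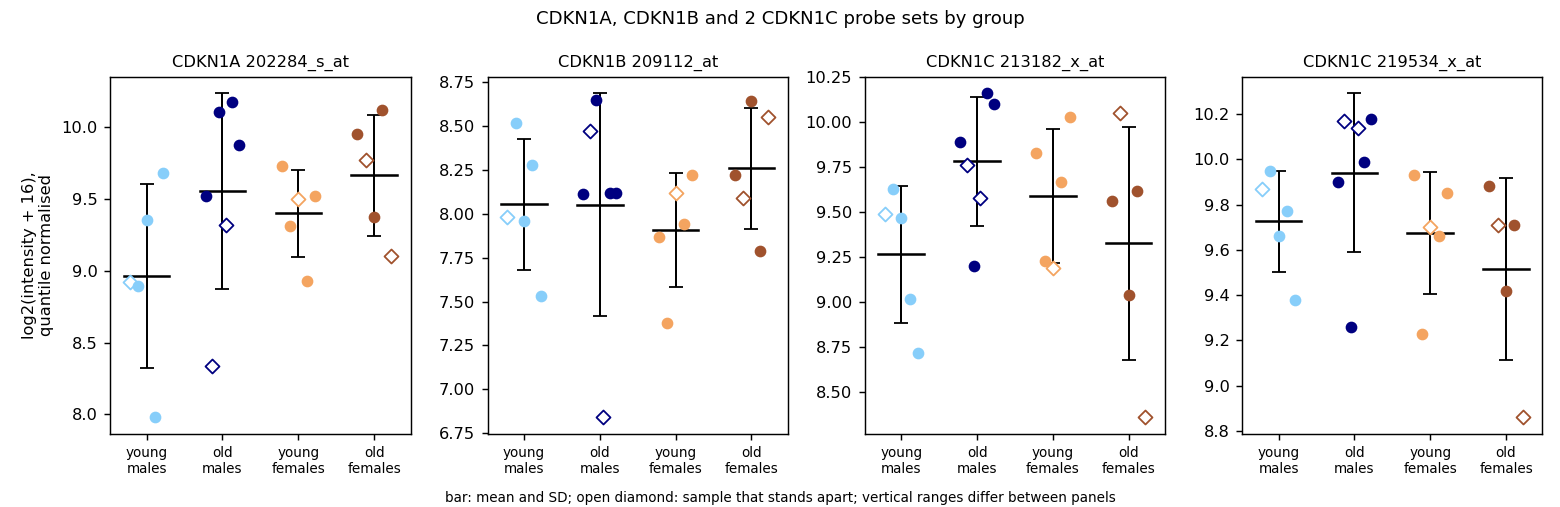
Levels of CDKN1A, CDKN1B and 2 CDKN1C probe sets by group, with 1 symbol per sample and the mean and SD as bars; open diamonds are samples that stand apart, and the vertical ranges differ between panels. Old male 4 is the low CDKN1B value (6.84), and old male 2 the low CDKN1A value among old males (8.34).

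The p53 regulator MDM2 was dim on all 5 probe sets, with means from 5.20 to 5.88. The brightest, 205385_at, lay at 5.22 to 7.24 in old and 5.15 to 6.89 in young males, and at 4.75 to 5.86 in old and 5.04 to 6.95 in young females. Its log2 change was 0.40 ± 0.40 in males and -0.39 ± 0.42 in females (limma adjusted p = 1 and 0.999 without the filter), and the groups overlapped in both sexes. Without the samples that stand apart the change was 0.54 in males and -0.52 in females. In males 2 of the 5 probe sets had a higher mean in old animals and 3 a lower one, and in females 3 were higher and 2 lower. The largest value was 0.88 ± 0.48 on 217373_x_at in females, where the 2 highest old females, at 7.61 and 6.87, both stand apart, and the change was 0.29 ± 0.55 without those samples.

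GDF15, the secreted stress factor, was within the reference range on both probe sets. On 221576_at all 21 samples lay between 4.41 and 5.08, close to the floor that the added 16 sets. On 221577_x_at old males read 6.49, 6.93, 6.61, 5.51, 7.17 and 8.09 (samples 1 to 6) and young males 6.64, 5.50, 6.19, 5.61 and 6.55 (samples 1, 2, 3, 5 and 6). Old male 6 was the only one of the 21 samples above the 95th percentile of the reference in its own array. The change was 0.70 ± 0.47 in males and 0.27 ± 0.49 in females (limma adjusted p = 1 and 0.999 without the filter). Without the samples that stand apart it was 1.13 ± 0.50 in males (limma adjusted p = 0.884 without the filter), where it was among the 5.38% of all probe sets with an unadjusted p below 0.05. In females it was 0.68 ± 0.54 without them, and it ran from -0.12 without young female 6 to 0.58 without old female 2 when 1 female was left out, so its direction there rested on single samples.

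LMNA, the gene of lamins A and C, lay above the reference range on all 4 probe sets, and none of them passed with age. On 212086_x_at old males read 11.04 to 12.48 with a median of 11.88, and young males 10.68 to 11.88 with a median of 11.74, a change of 0.25 ± 0.25, or 0.03 ± 0.24 without young male 1. Old females read 11.06 to 12.09 with a median of 11.27 and young females 11.43 to 12.08 with a median of 11.74, a change of -0.29 ± 0.26 (limma adjusted p = 1 in both sexes), or -0.19 ± 0.20 without the samples that stand apart. The smallest p belonged to 203411_s_at in females. There old females read 11.92, 10.45, 10.67, 11.25 and 10.38 (samples 1, 2, 3, 5 and 6) against 11.21 to 11.61 in young females. Old females 2, 3 and 6 lay below all young females and old female 1 above them, for a change of -0.53 ± 0.26 (limma adjusted p = 1). It was -0.19 ± 0.21 without the samples that stand apart and -0.77 ± 0.23 without old female 1 (limma adjusted p = 0.815).

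LMNA 214213_x_at and 212086_x_at lay at opposite ends of their groups in samples that stand apart. On 214213_x_at the highest samples of each group were those that stand apart: old males 2 and 4 at 10.65 and 9.97 against 8.21 to 8.63, old females 2 and 6 at 9.29 and 10.13 against 8.68 to 9.08, young female 3 at 9.94 against 7.96 to 9.21, and young male 1 at 9.98 against 8.64 to 9.04. On 212086_x_at the lowest sample of each group was among them. The part of RNA quality in this was not tested. Without them, the 4 old males on 214213_x_at, at 8.21 to 8.63, all lay just below the 4 young males, at 8.64 to 9.04, a change of -0.43 ± 0.23 (limma adjusted p = 0.910). In that set of samples, groups of males that did not overlap were found for 5.32% of all tested probe sets. In the same fit the LMNA probe sets split 2 against 2 in males, since the 2 brightest had higher means in old males (0.31 ± 0.18 and 0.12 ± 0.20) and 212089_at a lower one (-0.23 ± 0.26). With all samples in, 212089_at averaged 8.55 ± 0.98 in old and 8.94 ± 0.57 in young males, a change of -0.39 ± 0.38, and 8.83 ± 0.40 in old and 8.79 ± 0.44 in young females, a change of 0.04 ± 0.39 (limma adjusted p = 1 in both). Its lowest old male, at 6.96, was sample 4 and its highest, at 10.02, was sample 2, and the change in males was -0.08 without the first and -0.69 without the second.

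LMNB1, whose loss marks senescent cells in culture, had 1 probe set, which was below the filter and above the reference of its own array in 4 of 21 samples. Old males read 6.40, 7.05, 6.60, 7.25, 6.76 and 6.09 (samples 1 to 6) and young males 7.29, 7.00, 7.33, 7.45 and 7.57 (samples 1, 2, 3, 5 and 6). Old males 1, 3, 5 and 6 lay below all young males, and old males 2 and 4, which stand apart, lay above young male 2. The change was -0.64 ± 0.46 (limma adjusted p = 1 without the filter). Without the samples that stand apart the males did not overlap, with 6.09 to 6.76 in old and 7.00 to 7.57 in young animals, as for 2.05% of all probe sets with old males lower, and the change was -0.87 ± 0.37 (limma adjusted p = 0.857 without the filter).

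In females the mean of LMNB1 was higher in old animals, by an amount that rested on single samples. Old females read 7.13, 6.52, 8.01, 6.92 and 9.02 (samples 1, 2, 3, 5 and 6) and young females 6.34, 5.66, 8.78, 6.91 and 7.39 (samples 1, 2, 3, 5 and 6), overlapping groups with a change of 0.50 ± 0.48 (limma adjusted p = 0.999 without the filter). It was 0.13 ± 0.46 without old female 6, 0.17 ± 0.47 without young female 2, 0.94 ± 0.44 without young female 3, and 0.78 ± 0.40 without the samples that stand apart. The highest female, old female 6, also had the highest mean over the lymphocyte markers, at 8.51 against 6.28 to 7.43 in all other samples. Of these 9 marker genes, 2 lay above the reference range, and their summed intensity ran from 700 to 7950 in old females, 773 to 2050 in young females, 686 to 1590 in old males and 542 to 2000 in young males. Their part in the LMNB1 level was not tested. The age effect in males minus that in females was -1.14 ± 0.67 (interaction, limma adjusted p = 1 without the filter). Without the samples that stand apart it was -1.65 ± 0.54 (limma adjusted p = 1 without the filter), where it was among the 4.23% of all probe sets with an unadjusted interaction p below 0.05.

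**Figure D5:**
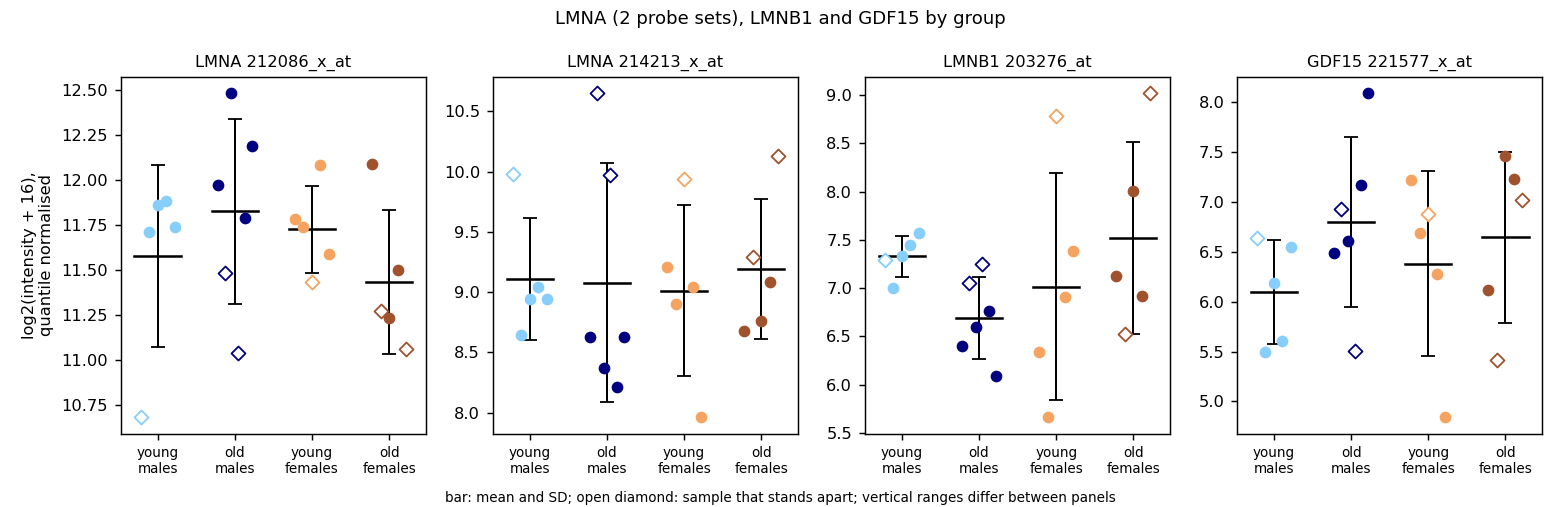
Levels of 2 LMNA probe sets, LMNB1 and GDF15 by group, with 1 symbol per sample and the mean and SD as bars; open diamonds are samples that stand apart, and the vertical ranges differ between panels. On LMNA 214213_x_at the open diamonds are the highest symbols of every group, and on LMNB1 the 4 filled old males (6.09 to 6.76) lie below all young males (7.00 to 7.57).

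Members were also set against each other over the 15 samples that do not stand apart, each gene by its brightest probe set and with group means subtracted. None of 28 pairs of genes passed. The largest correlations were negative for CDKN1C with MDM2 (r = -0.51, permutation p = 0.0511, adjusted p = 0.631; rho -0.65, permutation p = 0.0104, adjusted p = 0.290; r = -0.63 without the 2 farthest samples) and positive for CDKN1B with LMNB1 (r = 0.51, permutation p = 0.0517, adjusted p = 0.631; rho 0.42, permutation p = 0.120, adjusted p = 0.822; r = 0.53 without the 2 farthest samples). As a description over the same 15 samples, the genes with the pattern most like that of CDKN1A among 6947 were GOLGA1 (r = 0.87), SPACA9 (0.82) and DGKA (0.80). For CDKN2A 209644_x_at they were SKAP1 (r = 0.91), TXN2 and PDHA1 (0.90 each), and for CDKN1B JARID2 (0.91), KAT2B and PELI1 (0.87 each). CBLB, EPS15L1 and CLDN15 came closest to CDKN1C (r = 0.88, 0.86 and 0.84), and ABCG4, ZNF587 and SCRN1 to LMNA (0.84, 0.83 and 0.82). These are the highest values picked from 6947 genes on 15 samples. They were not tested against chance, so they do not show that the genes vary together.

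The wider pathways around the members were described with each gene by its brightest probe set, and 0 genes of the 6 lists passed in either sex. Over all 6952 genes tested this way, 48.2% averaged higher in old males and 46.5% in old females, which is the share that the counts below are read against. Of 17 tested genes of the p53 pathway, 9 averaged higher in old than young males (median log2 change 0.06, against -0.012 over all) and 5 in old females (median -0.09, against -0.022). FAS, a death receptor and p53 target, was measured at 8.48 ± 0.25 in old and 8.02 ± 0.44 in young males (log2 change 0.46 ± 0.22, unadjusted limma p below 0.05) and 8.84 ± 0.31 in old and 8.31 ± 0.34 in young females (0.53 ± 0.23, unadjusted limma p below 0.05). CCNG1, another p53 target, had a change of 0.27 ± 0.15 in males, and XPC, a DNA repair factor, one of -0.43 ± 0.22 in females. Of 16 CDK, cyclin and RB genes, 5 were higher in old males (median -0.06) and 9 in old females (median 0.06). The smallest p-values in this list belonged to SKP2, which marks p27 for degradation, with -0.68 ± 0.44 in males, and to the repressor E2F4 with -0.37 ± 0.18 in females.

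The secretory phenotype of senescent cells is a set of cytokines, proteases and growth factor binding proteins. Of 22 tested, 13 averaged higher in old than young males (median 0.13) and 6 in old females (median -0.12). IGFBP6, a binding protein of insulin-like growth factors, was at 12.31 ± 0.24 in old and 11.91 ± 0.33 in young males (0.40 ± 0.16, unadjusted limma p below 0.05), and PLAUR, the urokinase receptor, at 8.40 ± 0.19 in old and 7.58 ± 0.62 in young females (0.82 ± 0.36, unadjusted limma p below 0.05). PLAUR is also made by myeloid cells, and the mean over 10 macrophage markers ran from 7.93 to 9.98 in old and 8.58 to 9.13 in young females, and its part in this value was not tested. Secretory genes with the next smallest p in males were HGF (-0.49 ± 0.24), IGFBP3 (0.53 ± 0.39) and IL1B (-0.42 ± 0.33). In females they were IGFBP7 (-0.6 ± 0.46), ANGPTL4 (-0.8 ± 0.62) and IGFBP2 (-0.68 ± 0.58), all lower with age. Without the samples that stand apart these 3 female changes were -0.16, -0.73 and 0. PLAUR thus went against most of the list in females, where 16 of 22 genes had a lower mean. The lamina and chromatin list had 15 of 19 genes lower in old males (median -0.09) and 11 of 19 in old females (median -0.05). LEMD3, a protein of the inner nuclear membrane that binds lamins, was at 10.02 ± 0.62 in old and 10.54 ± 0.18 in young males (-0.52 ± 0.24, unadjusted limma p below 0.05). In females its mean went the other way, at 10.52 ± 0.17 in old and 10.26 ± 0.37 in young animals. The age effect on LEMD3 in males minus that in females was -0.77 ± 0.35 and did not pass after adjustment.

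Of 10 tested proliferation genes, 9 had a lower mean in old males, with a median of -0.25, and 5 in old females, with a median of -0.01. MCM7, part of the replicative helicase, was at 7.95 ± 0.49 in old and 8.52 ± 0.51 in young males (-0.57 ± 0.28, unadjusted limma p below 0.05), PTTG1 (securin) at 8.87 ± 1.38 and 9.77 ± 0.27 (-0.90 ± 0.47), and CCNA2 (cyclin A2) had a change of -0.44 ± 0.23. The other 20 of the 30 listed proliferation genes lay below the filter. The lysosomal enzymes and membrane proteins linked to senescence-associated beta-galactosidase had 5 tested genes, 4 of them higher in old males (median 0.09) and 3 in old females (median 0.04), led by FUCA1 with 0.26 ± 0.28 in males and LAMP1 with 0.15 ± 0.21 in females. The limma adjusted p was 1 for every gene of the 6 lists named so far. In males the unadjusted limma p was below 0.05 for 1 gene each of the p53, secretory, lamina and chromatin, and proliferation lists. It was so for 0 genes of the other lists, against 3.36% of all tested probe sets. In females it was so for 1 gene each of the p53 and secretory lists and 0 of the others, against 2.84%.

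Without the samples that stand apart, a setting added for the lists after their values were seen, 0 genes of the lists passed either. FAS had a change of 0.79 ± 0.20 in males and 0.53 ± 0.21 in females (limma adjusted p = 0.436 and 0.911), and PLAUR, then below the filter, one of 0.99 ± 0.39 in females (limma adjusted p = 0.885 without the filter). Several values came down: MCM7 to -0.21 ± 0.25, PTTG1 to -0.10 ± 0.15, LEMD3 to -0.21 ± 0.11 and SKP2 to -0.19 ± 0.34 in males. Others grew in males: ZMAT3 of the p53 list from 0.42 to 0.66 ± 0.18 and CCND1 from 0.45 to 0.91 ± 0.37 (limma adjusted p = 0.458 and 0.741). CDK2 went from -1.03 to -1.85 ± 0.69 and EMD of the lamina list from 0.31 to 0.37 ± 0.16 (limma adjusted p = 0.704 and 0.771). IGFBP6 had 0.35 ± 0.19 in males and LAMP1 0.34 ± 0.24 in females. Over all genes 50.6% then averaged higher in old males and 49.0% in old females. The proliferation list still had 8 of 9 tested genes lower in old males (median -0.21), but 7 of 9 higher in old females (median 0.26). The lamina and chromatin list had 14 of 19 lower in old males. The secretory list turned in both sexes, with 9 of 20 higher in old males (median -0.13) and 14 of 20 in old females (median 0.16), and 12 of 16 CDK, cyclin and RB genes were higher in old females (median 0.12).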

How the data were processed

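The authors' deposited table holds linear intensities, 1 per probe set, of 22277 probe sets on 24 arrays of a human platform. Per the labels, RNA extracted with phenol and chloroform was transcribed into biotin-labelled antisense RNA. For the software that summarised probes, the sources used here give no name. The deposited intensities share 1 trimmed mean across arrays (500.1 to 500.2). Here 62 control probe sets were removed, log2(intensity + 16) was taken, and arrays were quantile normalised because their medians spanned 0.81. The added 16 understates changes of dim genes. Near-identical arrays of a group (correlation of deviations above 0.7) were averaged. Probe sets with a mean at or above the median, 11108 of 22215, were tested with limma 3.58.1 in R 4.3.3 (group means, intensity trend, Benjamini-Hochberg). Gene symbols were those of the array's platform annotation (19064 probe sets with 1 symbol, 1043 with several, 2108 not named here). Members below the filter were taken from the fit without it. Correlations used 100000 permutations across all samples after group means were subtracted, so their p-values may be too small. All member probe sets are counted and plotted, and values are given for those the text names; other genes are the up to 4 of each list and sex with the smallest p, and the 3 most like a member. The members and lists were chosen with earlier results of these data known. The limma script was tested on simulated data with log2 changes made in old males. It recovered 47% of 100 probe sets changed by 1 and 91% of 100 changed by 2, with 6 false calls. Changes below 1 were not simulated. The number of arrays limits the precision. Replicate numbers were not used to pair samples. Of 30 same-numbered pairs, 14 correlated above 0.1 (r from -0.425 to 0.509). No share for pairs with different numbers is given here, so whether equal numbers share a batch was not tested.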

Additional observations from a re-analysis of the deposited data

Results flagged for a closer look

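In each group of 5 or 6 samples, the highest and lowest values of the 22 member probe sets were compared with the nearest other sample by Dixon's test. Of 88 groups tested, 10 had such an isolated sample, and chance gives about 1 in 20. The same rule picked out a sample in 10.5% of the groups over all probe sets tested and in 9.87% over all on the array, so the members' share was near that of other probe sets. In 6 of the 10 the isolated sample was one of those that stand apart, which are 6 of 21 samples, against 79.8% over all probe sets tested and 67.6% over all on the array. The 22 probe sets were read on the same 21 samples, so these cases are not independent. Young male 1 was low on CDKN2A 209644_x_at (7.70, against 8.09 to 8.21 in the other young males), on LMNA 212086_x_at (10.68, against 11.71 to 11.88) and on LMNA 203411_s_at (10.52, against 11.31 to 11.45). Old male 4 was low on CDKN1B (6.84, against 8.11 to 8.65) and on LMNA 203411_s_at (10.61, against 11.33 to 11.61), and high on GDF15 221576_at (5.08, against 4.43 to 4.54). Old male 3 was low on CDKN1C 219534_x_at (9.26, against 9.90 to 10.18). Among the dim MDM2 probe sets, old female 1 was low on 205385_at (4.75) and high on 211832_s_at (6.66), and young male 6 was high on 205386_s_at (6.60).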

How the results depend on the processing

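Each comparison was repeated with all arrays separate, other scalings, other pseudocounts, no filter, no intensity trend, array weights, a replicate block, without the 6 samples that stand apart, and without each sample in turn. No member probe set above the filter passed limma's threshold under any of them, nor did one below it in the fit without a filter (for CDKN2A 209644_x_at in males the adjusted p ran from 0.252 to 1, for CDKN1A from 0.126 to 1). In males the 2 probe sets past the threshold, neither of them a member, became 0 with median centring, a pseudocount of 64, no filter or no intensity trend, and 25 with array weights, and 0 to 2 when 1 male was left out. Averaged over the sexes 0 became 1 without the samples that stand apart and 1 with the replicate block, under which the count in males was 2. The CDKN1B change in males, -0.002, was 0.014 with all arrays separate, 0.034 with the deposited scaling, 0.010 with a pseudocount of 64, 0.074 with array weights, 0.178 without the samples that stand apart, 0.240 with the replicate block, and -0.134 to 0.240 when 1 male was left out. The CDKN1C change in females on 219534_x_at was 0.005 without the samples that stand apart and -0.267 to 0.009 when 1 female was left out. The GDF15 change in females on 221577_x_at was -0.12 to 0.58 when 1 female was left out. The number of member probe sets above the reference was 11 with the deposited scaling and 19 against the reference median. Without the 2 farthest samples 2 pairs of probe sets passed, of which 1, CDKN1C 219534_x_at with 213182_x_at, was shared with the 2 before.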
